A study of Mus musculus with 19 samples.

Results

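The smooth muscle contractile genes followed here are Acta2, Tagln, Myl9, Cnn1, Cnn2, Cald1, Tpm1, Tpm2, Tpm3 and Tpm4. They were chosen by name for their place in the contractile apparatus, with earlier results of these data known. Their Ensembl rows were found in the count table through the mouse gene symbols. All 10 were found among 55487 genes in the table, and all 10 passed the filter on low counts that left 15138 genes to test. RNASeq was measured in hepatic stellate cells (HSCs), the vitamin A storing pericytes of the liver, sorted by their ultraviolet autofluorescence from healthy male Balb/c mice of 23-24 weeks. Cells were either taken without culture (0 h, 2 samples) or grown for 3, 6, 12, 18 and 96 h (3 samples each) or 24 h (2 samples), with no treatment. The cultures were kept on plastic coated with collagen in DMEM with 10% serum, and the medium was renewed at 3 h and 24 h. Apart from replicate label and isolation date, plating and time in culture are the only differences that the labels give between groups. In comparisons with 0 h, culture time, serum, matrix and handling cannot be told apart. The culture groups shared serum and matrix and differ in time, with the medium changes at 3 h and 24 h. Each sample holds 2 technical repeats in the same column, and the replicate labels M1 and M3 carry the same isolation date while M2 carries a later date. The 0 h group holds M2 and M3, the 24 h group M1 and M2, and the other groups M1, M2 and M3. Values within the first date rest on M1 and M3 alone, which leaves 1 sample each at 0 h and 24 h.

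Contraction of smooth muscle rests on actin filaments pulled by myosin, and HSCs that turn into myofibroblasts acquire part of this machinery. Acta2 encodes α-smooth muscle actin, the usual marker of activated HSCs, and Myl9 encodes the regulatory light chain whose phosphorylation by myosin light chain kinase switches the motor on. Tropomyosins lie along the actin filament, caldesmon and the calponins bind actin and restrain the motor, and transgelin binds and bundles actin. Many of these genes are known targets of serum response factor, which binds the CArG box together with cofactors that respond to the pool of free actin.

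Libraries were of the 3′ tag type, in which reads come from the end of a transcript, so that values are given as CPM (counts relative to the total of the library) after scaling by the trimmed mean of M values (TMM) and are not divided by transcript length. Levels are therefore compared between times for each gene and not between genes. The libraries held 2073171 to 7690892 counts (median 4954915), with 0 h M3 the smallest. Mitochondrial genes took 14% and 12.7% of the counts in 0 h M2 and M3 and 3.62% to 8.14% in the culture libraries, and the part of this in the comparisons with 0 h was not tested. A level of 3 counts, the floor used here, corresponded to 0.385 to 1.5 CPM depending on the sample, and this floor covers counting error only. All 12 stellate cell markers were detected at 0 h, where their summed level was 32000 to 37300 CPM, and the sum was 2860 to 3250 CPM at 96 h. By the mean over all times, which ranks the most abundant markers named here for every cell type, Dcn and Ecm1 led them. All 12 were lower at 12 h than at 0 h, with Hand2, Lrat and Colec11 changed most, and 10 were lower at 96 h, with Ngfr, Colec11 and Rgs5 changed most. In bulk samples, fewer cells of a type and less RNA per cell cannot be told apart. Hepatocyte transcripts, led by Alb and Ttr, summed to 2818 CPM in 0 h M2 and to 6717 CPM in 0 h M3, and to 16.8 to 61.6 CPM at 96 h. Of the 8, 6 were lower at 12 h and at 96 h, led by Tat, Apoc3 and Fabp1. Kupffer cell and leukocyte transcripts (most abundant Lyz2 and Cd5l) summed to 310 to 373 CPM at 0 h and 11.2 to 22.9 CPM at 96 h, and 7 of the 8 were at 0 in every library at 96 h; 3 were called lower at 12 h (Clec4f, C1qa and C1qb) and 4 at 96 h, led by Cd5l. Endothelial transcripts (most abundant Kdr and Cdh5) summed to 473 to 657 CPM at 0 h, 678 to 2450 CPM at 3 h and 6.92 to 119 CPM at 96 h, where Stab2 alone was called lower. Their sum was highest in M1 at every culture time, with 2446 CPM in M1 against 814 and 678 CPM at 3 h and 558 CPM against 126.5 and 126.0 CPM at 12 h, and 0 h has no M1 sample. Portal fibroblast transcripts (most abundant Eln and Cd34) summed to at most 81.4 CPM, with Eln lower at 12 h, and cholangiocyte transcripts (most abundant Sox9 and Cldn4) to at most 14.5 CPM in any sample. The part of these other cells in the levels of the contractile genes was not tested.

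Promoters of 4 of the genes are shown so that the known CArG box can be looked for in them: Acta2 and Myl9, whose high values came late, Tpm1, which rose early, and Cnn2, which holds an exact box. RefSeq promoters (GRCm38.p6), running from 250 bases before to 50 bases after the annotated start, were given for 9 of the 10 genes in 11 entries. The windows are chr19:34255324-34255623 on the minus strand for Acta2, chr2:156775214-156775513 on the plus strand for Myl9, chr10:79988350-79988649 on the plus strand for Cnn2 and chr9:67049164-67049463 on the minus strand for Tpm1. Each is printed 5′ to 3′ on the strand of its gene, with CArG boxes, CArG boxes with 1 inner base off and the letters CATTCC, read on both strands, in capitals.
Acta2: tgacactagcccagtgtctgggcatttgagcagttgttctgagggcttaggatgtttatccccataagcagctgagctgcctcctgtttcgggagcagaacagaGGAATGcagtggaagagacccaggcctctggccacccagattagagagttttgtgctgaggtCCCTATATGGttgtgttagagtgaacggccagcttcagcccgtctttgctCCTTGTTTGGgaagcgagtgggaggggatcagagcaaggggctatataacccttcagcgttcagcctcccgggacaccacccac
Myl9: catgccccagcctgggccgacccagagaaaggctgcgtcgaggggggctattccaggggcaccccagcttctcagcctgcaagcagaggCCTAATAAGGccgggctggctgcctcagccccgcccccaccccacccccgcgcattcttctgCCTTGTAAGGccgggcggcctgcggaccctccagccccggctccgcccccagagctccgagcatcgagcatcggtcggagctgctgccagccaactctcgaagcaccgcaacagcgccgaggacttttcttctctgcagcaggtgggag
Cnn2: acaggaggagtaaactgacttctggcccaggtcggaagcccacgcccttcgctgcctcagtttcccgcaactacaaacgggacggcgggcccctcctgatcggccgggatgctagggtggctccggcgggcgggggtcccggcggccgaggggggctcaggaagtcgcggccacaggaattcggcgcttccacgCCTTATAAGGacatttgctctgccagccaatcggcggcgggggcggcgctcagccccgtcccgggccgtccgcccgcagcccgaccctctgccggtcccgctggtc
Tpm1: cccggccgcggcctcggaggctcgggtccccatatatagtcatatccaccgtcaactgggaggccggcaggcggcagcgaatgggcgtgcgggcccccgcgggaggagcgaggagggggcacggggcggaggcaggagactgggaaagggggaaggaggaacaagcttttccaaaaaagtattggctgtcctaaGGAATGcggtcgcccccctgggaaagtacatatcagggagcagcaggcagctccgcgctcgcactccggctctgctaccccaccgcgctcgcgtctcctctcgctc
An exact CArG box began 161 bases before the start of Myl9 and 56 bases before the start of Cnn2. Such a box was present in 535 of 32851 promoters of the same length (1.63%). Boxes with 1 inner base off began 84 and 34 bases before the start of Acta2 and 99 bases before that of Myl9, and both Tpm3 entries held 1. This looser form was present in 8.5% of all promoters. CATTCC, the core of the MCAT element bound by TEAD factors, lay on the opposite strand in Acta2 (146 bases before the start), in Tpm1 (56 bases) and in the upstream entry of Cald1 (153 bases), against 14.7% of all promoters. The capitals do not overlap one another in these windows. The entries of Cnn1, Tpm2 and Tpm4 and the downstream entry of Cald1 held none of the 3 patterns, and Tagln had no entry. These are matches of letters in a short window and say nothing of binding.

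Levels of 9 of the 10 genes differed between the 7 times, 0 h included (edgeR quasi-likelihood test of any difference, Benjamini-Hochberg adjusted p below 0.1), against 27.4% of all genes tested. Cnn1 was the exception with an adjusted p of 0.226. Tpm3 was among the 9, but it was called only in comparisons with 0 h. The 10 genes were chosen with earlier results of these data known, so the shares of all genes are given as a description. For pairs of times, a call in the same test required that the adjusted p be below 0.1 and the difference exceed 2-fold. At 3 h, 2 genes were higher and 1 was lower than at 0 h, against 4.19% and 1.39% of all genes. By 6 h, 4 were higher and 0 lower (6.98% and 4.35% of all genes). At 12 h, 4 were higher and 2 lower (8.6% and 9.1%). At 18 h, 5 were higher and 2 lower (7.64% and 8.21%). At 24 h, 6 were higher and 0 lower (5.65% and 3.86%). At 96 h, 9 were higher and 0 lower (5.83% and 5.03%). These 6 comparisons share the same 2 samples of 0 h. The lower calls at 12 h and 18 h, of Myl9 and Tpm2, were all lost without 0 h M3. Within culture, 4 genes were higher and 1 lower at 12 h than at 3 h (6.46% and 7.89% of all genes), 5 were higher and 0 lower at 96 h than at 12 h (6.96% and 6.57%), and 3 were higher and 0 lower at 96 h than at 24 h (1.37% and 1.35%). Beside the counts of 0 lower genes, the same edgeR test put 1 gene lower at an unadjusted p below 0.05 at 6 h, 1 at 24 h, 0 at 96 h, 2 for 96 h against 12 h and 1 for 96 h against 24 h, and DESeq2 called 0, 1, 0, 0 and 0 of them lower.

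The median log2 fold change of the 10 genes was 1.29 at 12 h and 2.28 at 96 h against 0 h, compared with 0.00 and 0.07 over all genes tested. At 6 h it was 1.2 and at 18 h 1.41. These fell to 0.65 and 1.04 with Cnn1, which had 0 counts at 0 h, put at the ratio of its mean to the 0 h floor. Among all called genes, the share that was higher moved with the scaling. At 6 h against 0 h it was 61.6% with TMM and 49.0% with DESeq2 size factors, at 18 h 48.2% against 37.2%, and at 24 h 59.4% against 48.2%, with 71.5% when only library size was used. For 96 h against 24 h it was 50.4% with TMM and 36.9% with library size only.

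**Figure D1:**
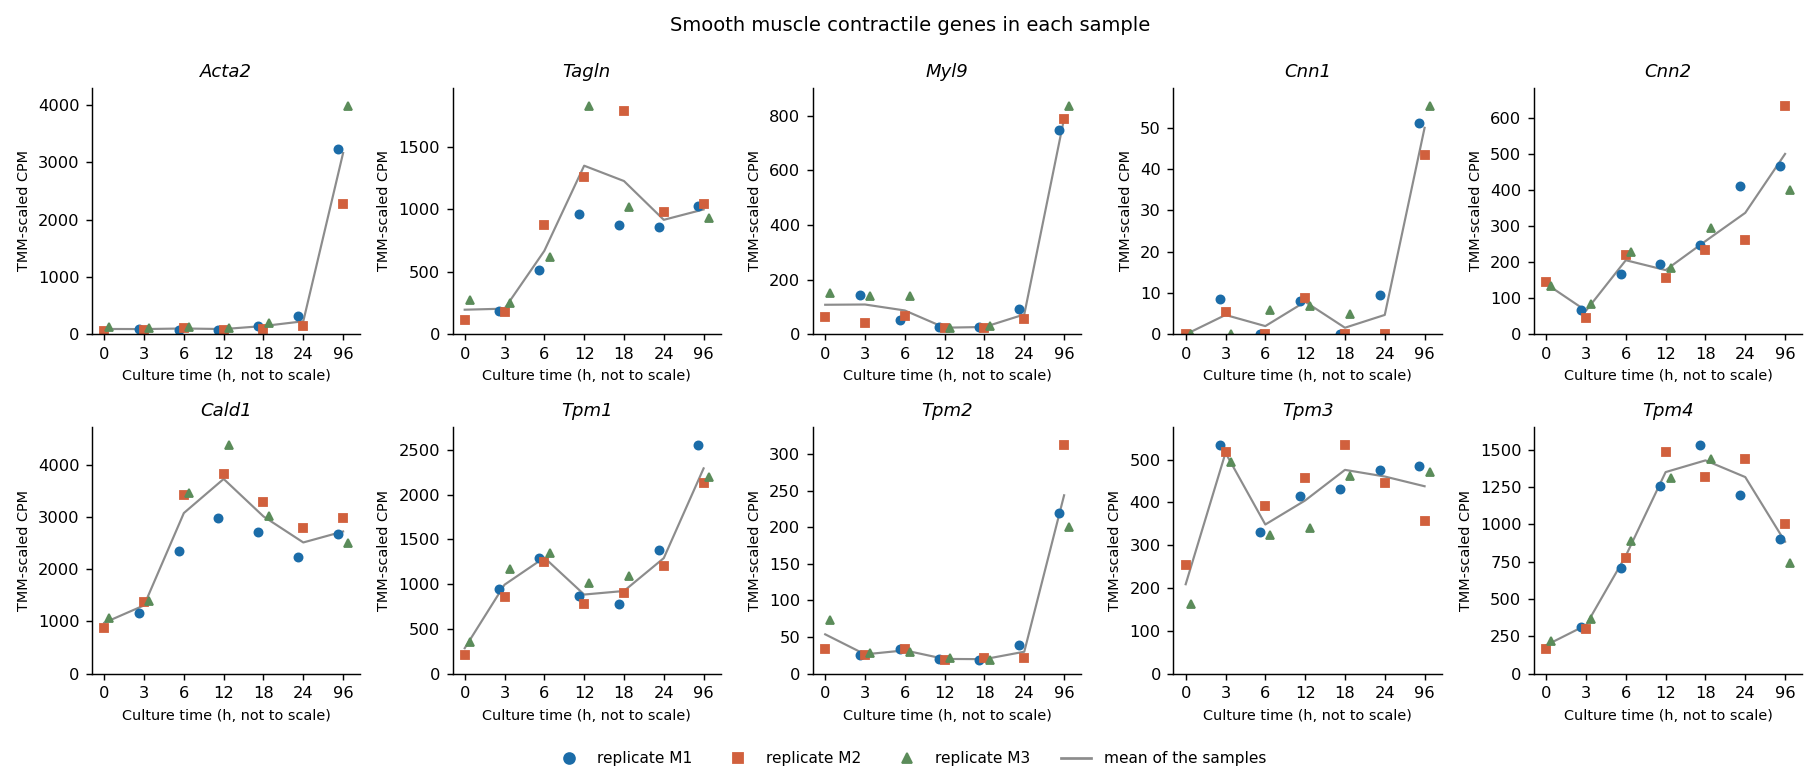
TMM-scaled CPM (y axes, linear and starting at 0) of the 10 genes at the 7 culture times (x axes, not to scale), with a point for each sample, shaped by replicate label, and a line through the means. Acta2, Myl9, Cnn1 and Tpm2 have their high values at 96 h alone, and Tagln, Cald1 and Tpm4 reach their highest mean at 12 or 18 h. Tpm1, Tpm3, Cald1 and Tpm4 are already above their 0 h samples at 3 h.

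**Figure D2:**
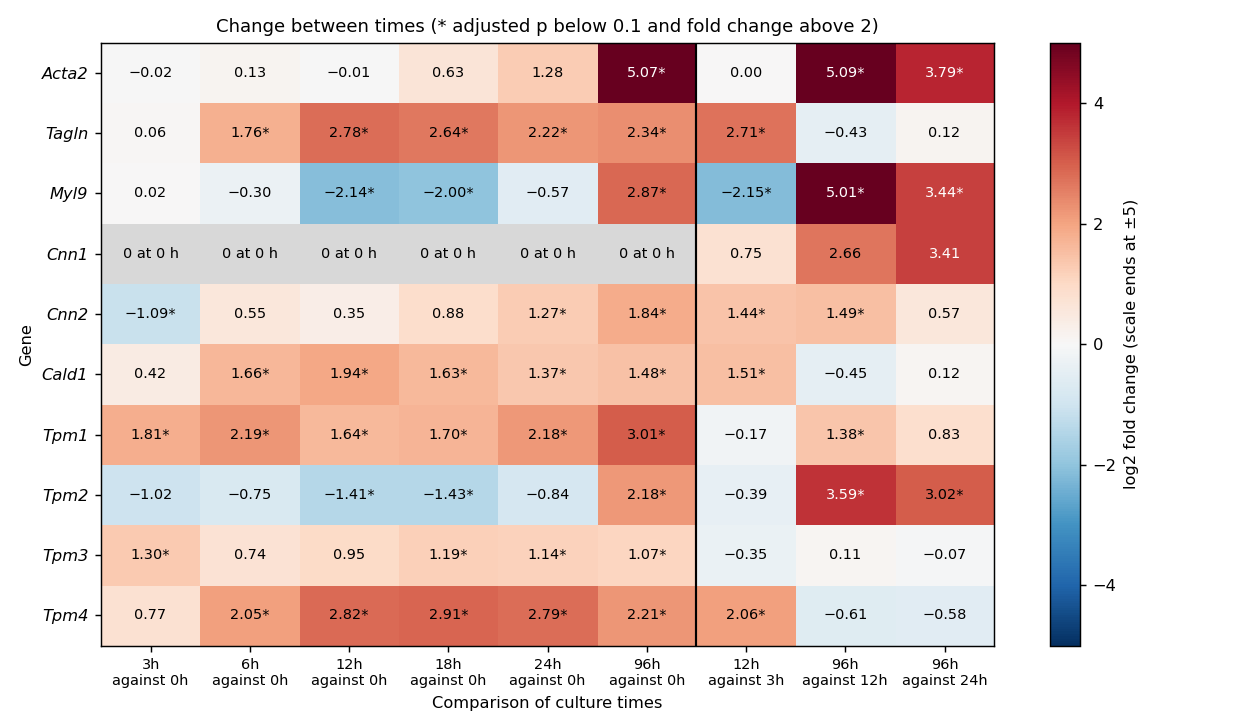
Log2 fold change (colour, and printed in each cell) of the 10 genes (rows) for each time against 0 h and for 3 pairs of times within culture (columns), with a star where the adjusted p was below 0.1 and the fold change above 2. Grey cells mark Cnn1, which had 0 counts in both 0 h libraries, so that its fitted folds against 0 h are not drawn. At 96 h against 0 h, all of the other 9 rows carry a star.

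The actin gene Acta2 (chr19:34241090-34255590, minus strand, GENCODE M21, GRCm38) stayed low through the first day and was high after 4 days. Its level was 51.58 CPM in M2 and 137 CPM in M3 at 0 h. It was 90.77, 76.83 and 111 CPM in M1, M2 and M3 at 3 h, and 82.58, 78.07 and 118 CPM at 12 h. All of these culture values lay between the 0 h pair, so the groups overlapped. At 24 h the level was 313 CPM in M1 and 144 CPM in M2, both above 0 h. At 96 h it was 3226, 2280 and 3986 CPM, far above every other sample. The mean at 96 h was 3164 ± 854 CPM (SD, n = 3) against 94.48 ± 60.7 CPM at 0 h (n = 2), a 33.7-fold difference (log2 fold change 5.07, SE 0.53, adjusted p = 1.11e-05; 5.94 without 0 h M3). Against 24 h it was 13.8-fold higher (log2 3.79, SE 0.49, adjusted p = 0.00045; 4.46 without 24 h M1).

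At 24 h, Acta2 was at 7.23% of its 96 h mean. Its difference from 0 h at that time did not pass the test (log2 1.28, SE 0.47, adjusted p = 0.127). The call at 24 h turned on the 0 h pair and on the fit. It was made with the replicate number as a block (1.56, adjusted p = 0.00661), with scaling by library size only (1.54, adjusted p = 0.0544), without 0 h M3 (2.15, adjusted p = 0.0282) and without 24 h M2 (1.74, adjusted p = 0.0681), and without 0 h M3 the 18 h difference was also called (1.496, adjusted p = 0.0873). The sample 0 h M3, with the higher Acta2 value, was also the one with the higher hepatocyte sum (6717 against 2818 CPM), and the part of that in its Acta2 level was not tested. At 24 h, M1 had the higher Acta2 value and also the higher endothelial sum (405 against 118 CPM), whose part was not tested either.

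Tagln, which encodes transgelin (SM22), rose much earlier (chr9:45929619-45936058, minus strand). It measured 117 and 278 CPM at 0 h, and 185.5, 179 and 254 CPM at 3 h, which overlap. At 6 h the samples held 512, 876 and 619 CPM and at 12 h 962, 1260 and 1830 CPM, all above 0 h. The difference from 0 h was called at 6 h (log2 1.76, SE 0.39, adjusted p = 0.00776), reached 6.85-fold at 12 h (2.78, SE 0.41, adjusted p = 0.00019) and was 5.07-fold at 96 h (2.34, SE 0.40, adjusted p = 0.00108). With each sample left out in turn, these 3 values ranged from 1.27 to 2.51, from 2.28 to 3.52 and from 1.85 to 3.09, highest without 0 h M3. From 12 to 96 h there was no call (log2 -0.43, SE 0.33, adjusted p = 0.444), and the samples of 96 h (1026, 1042 and 933 CPM) lay among those of 12, 18 and 24 h. The call at 6 h was lost without 0 h M2 (1.27, adjusted p = 0.114) and within the first isolation date (0.98, adjusted p = 0.251), where that at 24 h was lost too (1.61, adjusted p = 0.128). The last exon of Tagln overlaps Pcsk7 and the antisense gene Gm48529 on the plus strand, and whether strand was used in counting is not given in the sources used here. Those genes held 0 to 36.52 and 4.87 to 87.75 CPM over the samples.

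Cnn1 and Cnn2 encode calponin 1, a marker of differentiated smooth muscle, and calponin 2, which is also made outside muscle. Cnn1 (chr9:22099216-22109630, plus strand) had 0 counts in both 0 h libraries, where 3 counts are worth up to 1.5 CPM. It was detected in 2 of 3 libraries at 3 h, 1 of 3 at 6 h, 3 of 3 at 12 h, 1 of 3 at 18 h and 1 of 2 at 24 h, at no more than 9.43 CPM in any of them. At 96 h all 3 libraries held it, at 51.26, 43.44 and 55.34 CPM. The 96 h mean of 50.01 ± 6.05 CPM was 33.2 times the 0 h floor (taken per library, from the smaller of the pair). Every library had either 0 counts of Cnn1 or at least 23. The floor covers counting error only, so this ratio is not a firm lower bound on the fold. At 24 h M1 held 9.43 CPM and M2 0 counts. The edgeR fit over all samples made no call for Cnn1 in any comparison (adjusted p = 0.145 at 96 h against 0 h). The same comparison was called when only the 2 groups were fitted (adjusted p = 0.00653) and with DESeq2 (adjusted p = 0.0165), as was 96 h against 12 h in the fit of 2 groups (log2 2.65, adjusted p = 0.00737) and 12 h against 0 h in the fit of those 2 groups (adjusted p = 0.0553).

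Cnn2 (chr10:79988584-79996062, plus strand) first dropped and then climbed. It measured 145 and 135 CPM at 0 h and 66.92, 46.20 and 83.70 CPM at 3 h, a 2.13-fold fall (log2 -1.09, SE 0.27, adjusted p = 0.0271) with no overlap. From 3 h to 12 h it rose 2.72-fold (log2 1.44, SE 0.25, adjusted p = 0.000942), and at 96 h its 467, 634 and 400.2 CPM stood 3.57-fold above 0 h (1.84, SE 0.29, adjusted p = 0.00048). The fall at 3 h was not called within the first isolation date (-0.82, adjusted p = 0.317), without 0 h M2 (-1.05, adjusted p = 0.138), without 3 h M2 (-0.86, adjusted p = 0.149) or with only the 2 groups fitted (-1.04, adjusted p = 0.122). The rise at 24 h (log2 1.27, SE 0.30, adjusted p = 0.0133) was lost without 24 h M1 (0.91, adjusted p = 0.175).

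The myosin light chain gene Myl9 (chr2:156775420-156781658, plus strand) fell before it rose. At 0 h it measured 64.35 and 152 CPM, and at 3 h 145, 41.17 and 142 CPM, a wide and overlapping range. At 12 h the 3 samples were at 26.14, 22.35 and 25.18 CPM and at 18 h at 27.01, 23.65 and 30.49 CPM, all below every earlier sample. The fall from 0 h to 12 h was 4.40-fold (log2 -2.14, SE 0.49, adjusted p = 0.00649), and that from 3 h to 12 h, which does not use the 0 h samples, was 4.45-fold (-2.15, SE 0.45, adjusted p = 0.0047).

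At 96 h Myl9 reached 746, 787 and 836 CPM. This was 7.31-fold above 0 h (log2 2.87, SE 0.55, adjusted p = 0.00248; 3.62 without 0 h M3), 32.1-fold above 12 h (5.01, SE 0.51, adjusted p = 7.01e-06) and 10.8-fold above 24 h (3.44, SE 0.56, adjusted p = 0.00312). The 12 h and 18 h calls against 0 h were lost without 0 h M3 (-1.39, adjusted p = 0.134, and -1.25, adjusted p = 0.193), and within the first isolation date the 96 h to 24 h difference was 3.12 with an adjusted p of 0.103.

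Cald1, the gene of caldesmon (chr6:34598500-34775473, plus strand), joined Tagln in rising between 3 and 6 h. Its samples held 879 and 1071 CPM at 0 h and 1167, 1365 and 1392 CPM at 3 h. They reached 2359, 3414 and 3456 CPM at 6 h and 2983, 3828 and 4377 CPM at 12 h, with no overlap with 0 h or 3 h. The difference from 0 h was 3.16-fold at 6 h (log2 1.66, SE 0.21, adjusted p = 6.72e-05), 3.82-fold at 12 h (1.94, SE 0.21, adjusted p = 8.73e-06) and 2.79-fold at 96 h (1.48, SE 0.20, adjusted p = 0.000153). At 24 h it was 2.58-fold (1.37, adjusted p = 0.000582), a call lost within the first isolation date (1.04, adjusted p = 0.239). Cald1 encodes a long smooth muscle form and a shorter form of other cells, which the counts do not separate.

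The 4 tropomyosin genes took 4 courses. Tpm1 (chr9:67022590-67049406, minus strand) was called at 3 h, the first time in culture, as was Tpm3. It rose from 211 and 359 CPM at 0 h to 948, 862 and 1173 CPM at 3 h, which is 3.50-fold (log2 1.81, SE 0.23, adjusted p = 0.000148). It stayed between 776 and 1381 CPM until 24 h and then reached 2554, 2127 and 2201 CPM at 96 h, 8.06-fold above 0 h (3.01, SE 0.24, adjusted p = 7.43e-07) and 2.59-fold above 12 h (1.38, SE 0.19, adjusted p = 0.000167). The step from 24 to 96 h was 1.78-fold (0.83, adjusted p = 0.0657), under the fold threshold. Tpm1 makes both muscle and cytoskeletal forms by alternative splicing, which are counted together here.

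Tpm2 (chr4:43514711-43523765, minus strand), the gene of β-tropomyosin, was low at 12 h and high at 96 h, as Myl9 was. It held 34.30 and 73.21 CPM at 0 h, 18.80 to 21.99 CPM at 12 h and 219, 312 and 200 CPM at 96 h. Unlike Myl9, it was already below both 0 h samples at 3 h (25.61 to 27.83 CPM). From 3 to 12 h there was no call (log2 -0.39, SE 0.315, adjusted p = 0.468). The 12 h level was 2.66-fold below 0 h (log2 -1.41, SE 0.35, adjusted p = 0.0109), and the 96 h level was 4.54-fold above 0 h (2.18, SE 0.38, adjusted p = 0.00119; 2.83 without 0 h M3) and 12.1-fold above 12 h (3.59, SE 0.34, adjusted p = 4.42e-06). The fall was lost without 0 h M3 (-0.77, adjusted p = 0.240) and with only the 2 groups fitted (-1.41, adjusted p = 0.145), as was that at 18 h (-0.79, adjusted p = 0.236, and -1.47, adjusted p = 0.155). The 3 h, 6 h and 24 h levels, not called below 0 h, were called without 0 h M2 (-1.47, adjusted p = 0.0369; -1.201, adjusted p = 0.0691; -1.29, adjusted p = 0.0796). Within the first isolation date, the differences of 96 h from 0 h (1.504, adjusted p = 0.117) and from 24 h (2.45, adjusted p = 0.104) were not called.

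Tpm3 (chr3:90072649-90100902, plus strand) changed least. It measured 254 and 163.5 CPM at 0 h and 534, 519 and 495 CPM at 3 h, a 2.47-fold rise (log2 1.30, SE 0.21, adjusted p = 0.00137), and then stayed between 324 and 534 CPM. Its later differences lay near the 2-fold threshold. They were called at 18 h (1.19, adjusted p = 0.0011), 24 h (1.14, adjusted p = 0.00371) and 96 h (1.07, adjusted p = 0.00337), but not at 6 h (0.74) or 12 h (0.95, adjusted p = 0.00513). With DESeq2 size factors the 3 later values dropped to 0.95, 0.92 and 0.92, and without 0 h M3 to 0.90, 0.86 and 0.78, all under 2-fold, while without 0 h M2 the 6 h (1.09, adjusted p = 0.0122) and 12 h (1.31, adjusted p = 0.00269) values were called. Without 96 h M1 the 96 h value was 0.98, and without 12 h M3 the 12 h value was 1.06 and called (adjusted p = 0.00481). The retrocopy Tpm3-rs7, which shares sequence with Tpm3, held 110 to 340 CPM, and the counting could have split reads between the pair. With their counts summed, the 3 h rise was 1.26 (adjusted p = 0.000477).

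Tpm4 (chr8:72134975-72153142, plus strand), which encodes a cytoskeletal tropomyosin, rose to a plateau and came down again. It went from 163 and 219 CPM at 0 h to 310, 301 and 364 CPM at 3 h, with no overlap but below the fold threshold (log2 0.77, SE 0.18, adjusted p = 0.0215). The samples held 708, 772 and 889 CPM at 6 h and 1531, 1317 and 1438 CPM at 18 h, and 905.5, 1005 and 741 CPM were left at 96 h. The rise was 4.14-fold at 6 h (log2 2.05, SE 0.19, adjusted p = 4.25e-06), 7.08-fold at 12 h (2.82, SE 0.20, adjusted p = 1.61e-07) and 4.64-fold at 96 h (2.21, SE 0.19, adjusted p = 1.6e-06). The decrease from 12 to 96 h was 1.53-fold with no overlap of the samples (-0.61, SE 0.16, adjusted p = 0.0181), below the fold threshold. The last exon of Tpm4 overlaps the noncoding gene Gm16091 on the minus strand, with the same limit on strand as for Tagln.

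Shares within a library do not depend on scaling between libraries, and they show the turnover of the tropomyosins. Tpm4 made up 24.6% and 26.8% of the 3′ tag counts of the 4 genes at 0 h, 17.1% to 17.7% at 3 h, 48.7% to 54.3% at 12 h and 20.5% to 26.4% at 96 h. Tpm1 made up 31.8% and 44.1% at 0 h, 50.5% to 57.0% at 3 h, 28.3% to 37.7% at 12 h and 56.0% to 61.3% at 96 h. The share of Tpm2 was 5.18% and 8.99% at 0 h, 0.612% to 0.819% at 12 and 18 h, and 5.25% to 8.22% at 96 h.

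Time accounted for 96.3% of the variance of the Tpm4 share (permutation test over samples, one-sided, p = 1e-05, the smallest that 100000 resamples can give; adjusted p = 5e-05 over 5 shares). For Tpm1 it was 90.3% (permutation p = 8e-05, adjusted p = 2e-04) and for Tpm2 90.1% (permutation p = 5e-04, adjusted p = 8e-04). Tpm3, at 38.4% and 20.1% in the 0 h pair and 9.36% to 13.1% at 96 h, had 77.5% (permutation p = 0.008, adjusted p = 0.01). The share of Cnn1 among the calponin 1 and 2 counts was 0% at 0 h, where 3 counts mark the floor, 0% to 11.4% at 3 h, 3.57% to 5.32% at 12 h and 6.41% to 12.1% at 96 h, with 68.6% of its variance between times (permutation p = 0.02, adjusted p = 0.02). With times permuted only within a replicate number, the 5 p-values were between 1e-05 and 0.04, and the Cnn1 share was not called within the first isolation date (68.7%, permutation p = 0.25).

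**Figure D3:**
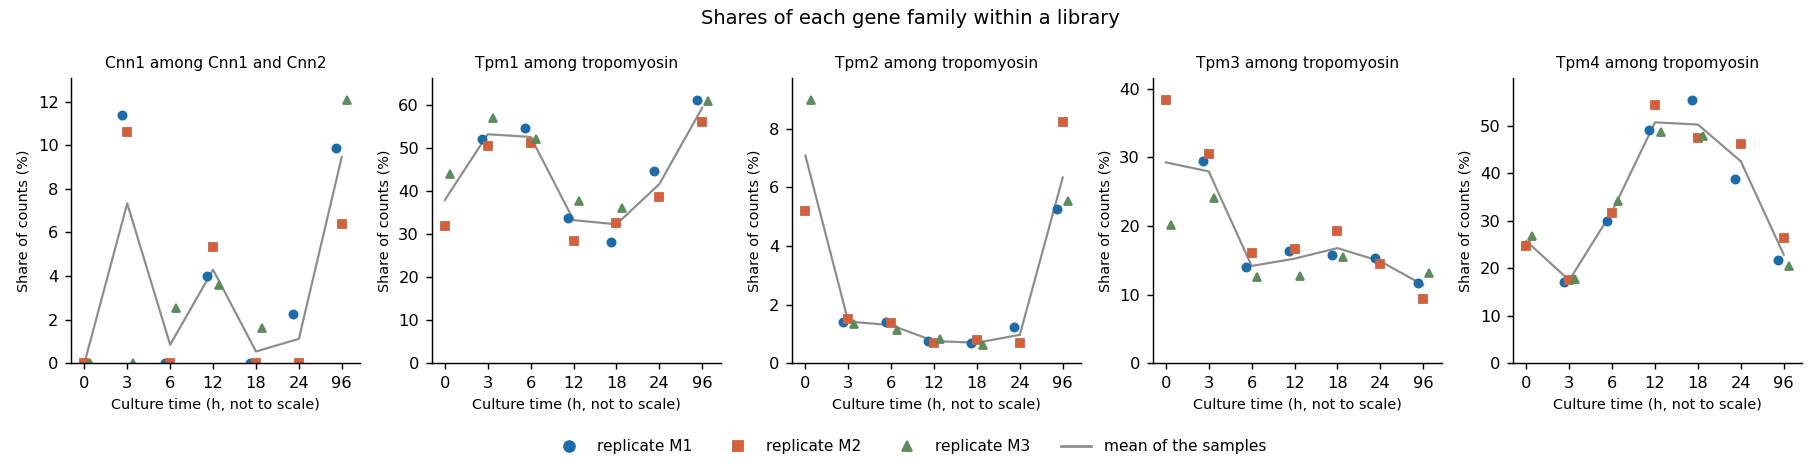
Share of counts in percent (y axes, starting at 0) of Cnn1 among Cnn1 and Cnn2 counts and of Tpm1 to Tpm4 among the counts of the 4 tropomyosin genes at the 7 culture times (x axes, not to scale), with a point for each sample and a line through the means. The Tpm4 share peaks at 12 and 18 h, when the Tpm1 share is at 28.1% to 37.7%, and the Tpm2 share is above 5% only in the samples of 0 and 96 h.

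Over the 19 samples, the log2 CPM of some of the members fell into a pair of patterns, given as a description since all points share their libraries and culture times. Tagln, Cald1 and Tpm4 had Pearson r of 0.92 to 0.93 with one another. Acta2, Myl9 and Tpm2 had r of 0.82 to 0.92 with one another. Between the patterns, Myl9 and Tpm4 had r of -0.26 and Acta2 and Tagln 0.34. Cnn2 had r of 0.71 with Acta2 and 0.70 with Tagln, and Tpm3 had at most 0.55 with any member (Tpm1). Tpm1 had r of 0.69 with Acta2 and 0.54 with Tagln, and Cnn1 had 0.68 and 0.27. Of 6714 other genes whose mean reached 20 CPM, those most like Acta2 were Col8a1 (r = 0.97), Btc (0.97), Basp1 (0.96), Prss35 (0.96) and Myl6 (0.96), and those most like Myl9 were Col1a1 (0.91), Agfg2 (0.90), Tuba1a (0.89), Mboat7 (0.89) and Sparc (0.89). Those most like Tpm4 were Ranbp1 (0.97), Tnc (0.96), Pgd (0.96), Pno1 (0.96) and Ankrd1 (0.96). Cald1 was closest to Col4a1 (0.96), Cycs (0.95), Tnc (0.95), Pgd (0.95) and Crim1 (0.94).

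The partners of these genes in contraction were also measured. Mylk, the gene of myosin light chain kinase, measured 747 and 929 CPM at 0 h, 123, 145 and 126 CPM at 12 h and 1260, 975 and 1027 CPM at 96 h. It fell from 0 h by 1.74 on the log2 scale at 6 h (adjusted p = 0.000525) and by 2.68 at 12 h (adjusted p = 5.64e-06), and it rose 3.05 from 12 to 96 h (adjusted p = 1.74e-06) and 2.17 from 24 to 96 h (adjusted p = 0.000688). At 96 h its 3 samples lay above both 0 h samples, without a call (log2 0.38, SE 0.28, adjusted p = 0.468). These falls and rises stood in every left-out sample, in both other scalings and within the first isolation date. Besides Mylk, Ppp1r12b, a myosin phosphatase subunit, fell by 2.56 at 12 h (adjusted p = 0.000164) and rose 2.45 from 12 to 96 h (adjusted p = 0.000199). Ppp1r14b, of a family of phosphatase inhibitors, rose 2.15 at 12 h and 2.71 at 96 h (adjusted p = 9.97e-05 and 2.31e-05).

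Among myosins, 2 of 7 tested genes were higher at 96 h than at 0 h, against 5.83% of all genes. Myl6, the essential light chain, went from 554 and 669 CPM at 0 h to 1893, 1715 and 2406 CPM at 96 h (log2 1.71, SE 0.20, adjusted p = 3.47e-05), and Myl12a, a nonmuscle regulatory light chain, rose by 1.42 (SE 0.22, adjusted p = 0.000384). At 12 h, Myl12b (-2.88, adjusted p = 0.0348) and Myh10 (-1.89, adjusted p = 0.014) were lower and Myh9, a nonmuscle myosin heavy chain, was higher (1.03, adjusted p = 0.00141). The Myl12b call was lost without 12 h M1 or M2 (adjusted p = 0.112 and 0.119) and its value was -3.79 without 12 h M3, the Myh10 call without 0 h M2 (-1.32, adjusted p = 0.180), and the Myh9 value was 0.79 with DESeq2 size factors and 0.89 without 12 h M2. Myl12a and Myl12b are near-identical copies between which reads could be split. Myh11, the smooth muscle myosin heavy chain, was at 12.27 and 20.06 CPM at 0 h and at 26.92, 42.29 and 38.35 CPM at 96 h, with no overlap but no call (log2 1.15, adjusted p = 0.650).

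Both cytoplasmic actins rose. Actb went from 7159 and 7815 CPM at 0 h to 16270, 15490 and 19220 CPM at 12 h (log2 1.18, SE 0.14, adjusted p = 2.78e-05; 0.95 with DESeq2 size factors) and to 21830, 21790 and 26530 CPM at 96 h (1.64, adjusted p = 2.04e-06). Actg1 rose by 1.46 at 12 h and 1.55 at 96 h (adjusted p = 0.00141 and 0.00127), the latter not called within the first isolation date (1.47, adjusted p = 0.127). Actg2 was at 0 to 24.05 CPM and was not called, Actc1 was at 0 in every library, and Acta1 did not pass the filter. Of the other transgelins and calponins, Tagln2 was higher at 12 h (1.22, adjusted p = 5.33e-05; 0.98 with DESeq2 size factors) and neither it nor Cnn3 was called at 96 h (0.78 and 0.28, adjusted p = 0.00336 and 0.662).

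Of 12 actin-binding and Z-band like genes, 3 were higher at 12 h than at 0 h and 4 were higher at 96 h, against 8.6% and 5.83% of all genes. Actn1, the gene of α-actinin 1, measured 210 and 479 CPM at 0 h and 2380, 3171 and 3287 CPM at 12 h, a rise of 3.10 (SE 0.33, adjusted p = 8.54e-06), and stayed there at 96 h (3.25, adjusted p = 9.77e-06), with 3.81 and 3.97 without 0 h M3. The filamin gene Flna rose by 1.79 at 12 h (adjusted p = 0.000325). Pdlim7 rose by 1.79 at 12 h and 1.97 at 96 h (adjusted p = 0.00924 and 0.00757), calls lost without 0 h M2 (1.42 and 1.60, adjusted p = 0.119 at both), and Pdlim1 rose by 1.43 at 96 h (adjusted p = 0.00527), a call lost within the first isolation date (1.25, adjusted p = 0.270). Of the regulators, Srf was at means of 14.5 to 67.4 CPM without a call in any comparison. Mrtfa was at means of 5.5 to 15.5 CPM up to 24 h and at 71.05 CPM at 96 h. Its 96 h samples (52.48 to 92.21 CPM) lay above all others, yet it had no call in any comparison (log2 3.32 against 0 h, SE 2.97, adjusted p = 0.57). Myocd was at 0 in every library.

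Markers of smooth muscle cells, whose contractile genes overlap with the members by function, summed to 159 to 189 CPM at 0 h, 58.5 to 74.3 CPM at 12 h and 202 to 317 CPM at 96 h. Of the 10, Myocd and Pln were at 0 in every library, and Kcnmb1 at 0 h and Pcp4l1 at 96 h were also at 0. Des, which HSCs also express and which is in both marker lists, was at a mean of 122 CPM at 0 h, 35.11 CPM at 12 h and 112 CPM at 96 h (log2 -1.80 at 12 h, adjusted p = 0.0476). Synpo2, the next by the mean over all times, was at 16.4 CPM at 0 h and 2.95 CPM at 96 h, while Lmod1 was at 13.66 and 56.57 CPM, Actg2 at 4.01 and 13.40 CPM, Casq2 at 0.627 and 12.43 CPM and Kcnmb1 at 0 and 9.23 CPM. Of these markers, 0 of the 8 tested markers were called at 96 h against 0 h by edgeR (3 at an unadjusted p below 0.05, and 2 called by DESeq2; 5.83% of all genes were called higher). Against 12 h, 2 of the 8 were higher at 96 h (Lmod1, log2 2.87, adjusted p = 0.030, and Des, 1.67, adjusted p = 0.0559), with a median over the 8 of 2.81 against 0.09 over all genes, of which 6.96% were called higher. Their part in the levels of the contractile genes was not tested.

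**Figure D4:**
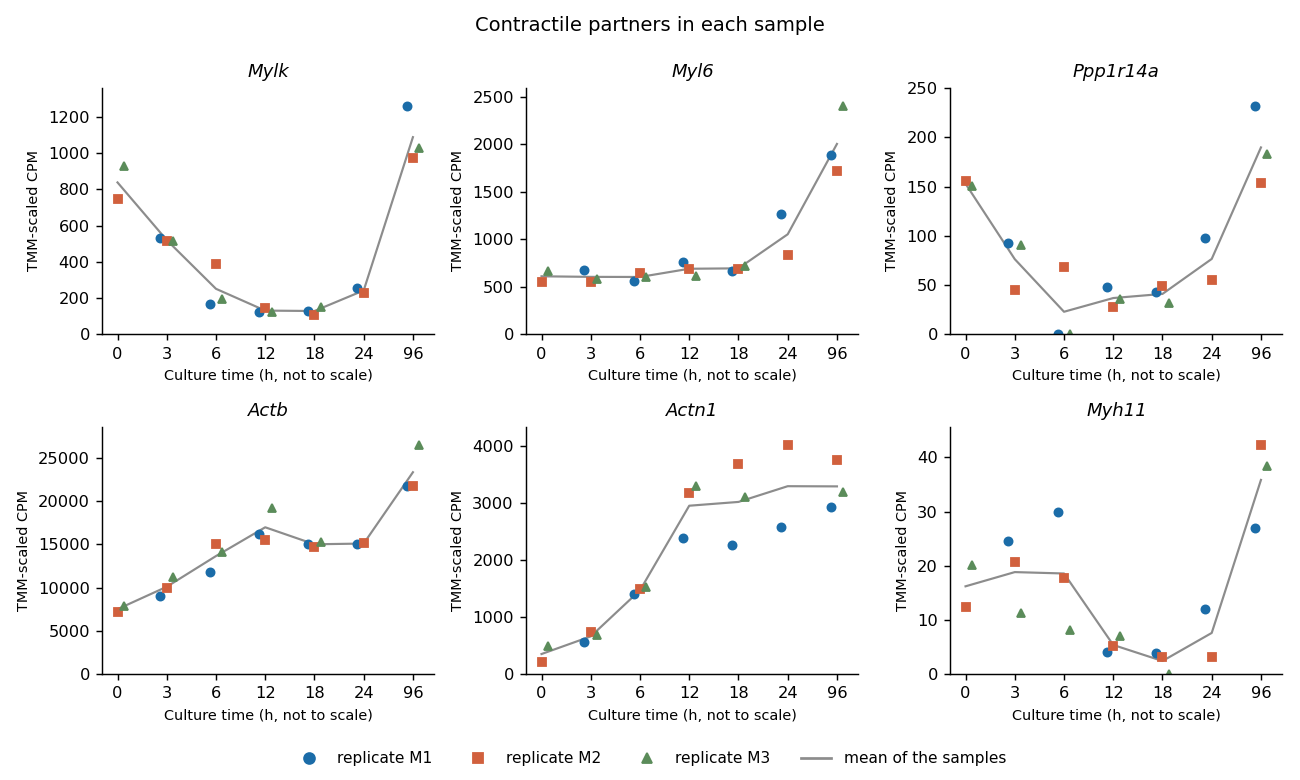
TMM-scaled CPM (y axes, linear and starting at 0) of 6 contractile partners at the 7 culture times (x axes, not to scale), with a point for each sample and a line through the means. Mylk is lowest at 12 and 18 h (107 to 149 CPM) and at 975 to 1260 CPM at 96 h, Myl6 is highest at 96 h, Actn1 reaches its plateau at 12 h, and Myh11 stays at or below 42.29 CPM.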

How the data were processed

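RNASeq counts of 19 samples of mouse HSCs were analysed. Libraries were QuantSeq 3′ libraries per the labels. Per the methods of the study, single-end reads were quality-controlled, trimmed and mapped with STAR to GRCm38.p6 (mm10 in the submitters' processing notes), and genes were assembled with StringTie; the counting tool, its strand setting and annotation release are not given in the sources used here. The authors deposited raw counts, whole numbers per Ensembl gene with no normalization, and every column of the table was used (0 left out). Groups came from the sample labels.

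Symbols were matched for 55141 of 55487 genes with the reference name table. Genes were filtered with filterByExpr at its defaults (15138 kept), scaled by TMM and compared by edgeR 4.0.16 (quasi-likelihood F test; limma 3.58.1, R 4.3.3) in a single fit of all 19 samples by time, with no covariate. Calls needed a Benjamini-Hochberg adjusted p below 0.1 over all genes tested and a fold change above 2. Every adjusted p in the text comes from this test unless another is named. Log2 CPM used a prior count of 2. Shares were tested by permuting times over samples. The methods of the study give 3 independent repeats per time, but nothing in the labels says that samples of a time came from separate animals. The p-values thus refer to the spread between these samples. In the edgeR fit, that spread was estimated within times over all 19 samples and moderated across genes. Totals of 2073171 to 7690892 counts set the floor of 3 counts at 0.385 to 1.5 CPM, which covers counting error only.

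The replicate number in the labels was taken to pair samples, since M1 and M3 share an isolation date and M2 has another; deviations from the group means had a mean correlation of 0.014 over 51 pairs with the same number and -0.007 over 103 pairs with different numbers. Alternatives were other scalings, DESeq2 1.42.0, no filter, a replicate block, a single isolation date, leaving out each sample (a time left with 1 sample was assumed to vary like the others), fitting only the 2 groups compared, a threshold of 0.05 and, chosen after seeing the data, summing Tpm3 with Tpm3-rs7. The scripts were tested on simulated data. Figures were drawn with matplotlib 3.10.9 in Python 3.11.15, gene positions came from GENCODE M21 and promoters from RefSeq (GRCm38.p6).

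Named besides the members were Actb, Myh11, Mylk, Srf, Mrtfa and Myocd, the 5 genes most like each of Acta2, Myl9, Tpm4 and Cald1, in each gene list the 3 called genes with the largest change at 12 h and at 96 h, and the 2 most abundant markers of each other cell type. Genes named outside this rule (Actg2, Acta1, Actc1, Cnn3, Tpm3-rs7, Pcsk7, Gm48529, Gm16091, Pln, Lmod1, Casq2, Kcnmb1 and Pcp4l1) were chosen after their values were seen. The members and lists were chosen with earlier results of these data known.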

Additional observations from a re-analysis of the deposited data

How the results depend on the processing

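The counts of called genes stayed within 1.5 times their main value under every alternative, except that 96 h against 24 h fell from 3 to 1 within the first isolation date. With each sample left out in turn, the counts were 2 to 3 at 3 h, 4 to 5 at 6 h, 4 to 7 at 12 h, 5 to 7 at 18 h, 5 to 7 at 24 h and 8 to 9 at 96 h against 0 h, 5 for 12 h against 3 h and for 96 h against 12 h, 3 for 96 h against 24 h and 9 for the time effect. These counts take higher and lower calls together. Without 0 h M3, Myl9 was at -1.39 at 12 h and -1.25 at 18 h against 0 h, compared with -2.14 and -1.997 in the main fit. Tpm2 was at -0.77 and -0.79, compared with -1.41 and -1.43. Myl9 and Tpm2 made up the lower calls at 12 h and 18 h, and all of these were lost without 0 h M3. The cause of these differences was not tested. The Cnn1 share, whose between-time variance was 68.6%, was not called within the first isolation date (68.7%, permutation p = 0.25) and ranged from 63.7% to 91.8% with each sample left out, losing its call without 96 h M1 (64.5%) or M3 (63.7%). The replicate block changed the call of Acta2 at 24 h and of no other member. Cnn1 gave no value where its counts were 0 in both groups after a sample was left out.

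Signs changed only where no call was made. With library size only, Tagln (-0.007) and Myl9 (-0.05) at 3 h, Acta2 at 12 h (0.06), and Tagln (-0.002) and Cald1 (-0.01) at 96 h against 24 h changed sign. With DESeq2 size factors in edgeR this held for Tagln (-0.027), Myl9 (-0.068) and Acta2 at 6 h (-0.103) and at 12 h against 3 h (-0.144), and with DESeq2 for the same genes (-0.026, -0.068, -0.103 and -0.144). Acta2 at 12 h against 3 h was -0.058 without the filter, -0.012 with only the 2 groups and -0.043 within the first isolation date. That date also gave Tagln -0.31 and Myl9 -0.058 at 3 h, Acta2 -0.474 at 6 h and Tpm3 0.021 at 96 h against 24 h. With the replicate block, Acta2 was 0.1 at 3 h, 0.096 at 12 h and -0.004 at 12 h against 3 h, and with only the 2 groups 0.038 at 3 h. With each sample left out, the ranges of values that changed sign were, on the log2 scale, Acta2 at 3 h against 0 h -0.565 to 0.848, Myl9 at 6 h against 0 h -0.823 to 0.445, Acta2 at 12 h against 0 h -0.562 to 0.851, Myl9 at 24 h against 0 h -1.063 to 0.181, Tagln at 3 h against 0 h -0.431 to 0.811, Myl9 at 3 h against 0 h -0.48 to 0.764, Acta2 at 6 h against 0 h -0.414 to 0.999, Acta2 at 12 h against 3 h -0.209 to 0.152, Cald1 at 96 h against 24 h -0.039 to 0.29 and Tpm3 at 96 h against 24 h -0.154 to 0.056.

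Over all genes, the median log2 fold change moved by up to 0.24 at 24 h with library size only and to -0.20 for 12 h against 3 h with DESeq2 size factors, compared with 0.00 and -0.05 with TMM. Of 72 calls of relatives, partners and regulators, 3 were lost with library size only, 13 with DESeq2 size factors, 2 with the replicate block and 28 within the first isolation date, and no call turned its sign under these or with any sample left out. The level of Cnn1 before 96 h was at most 9.43 CPM, and 0 h and 24 h have 2 samples each.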
